A study of Homo sapiens with 36 samples.

Results

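The proteasome genes described here are the 44 genes whose symbols are PSM, a letter from A to G and a number in the deposited expression tables, without PSMB8 and PSMB9 and without pseudogene or antisense symbols. They were 44 of the 13364 genes tested in one table and 44 of the 13066 tested in the other. They comprised 15 core subunits, 17 subunits of the regulatory cap, 7 assembly factors, and 5 further regulators that bind the core (PSME1 to PSME4 and PSMF1). RNA was measured in 36 libraries of 501mel and IGR37, human melanoma cell lines, by QuantSeq, which counts tags from the 3' ends of transcripts. Each line had 6 groups of 3 libraries taken at 48 h: A939372 at 1 uM, an inhibitor of stearoyl-CoA desaturase (SCD), called SCDi here, with its DMSO control; the SCD siRNA siSCD#1 with its control siCTR_1; and the SCD siRNA siSCD#2 with its control siCTR, all siRNAs at 20 nM. All cells grew in RPMI with 10% serum. The authors normalised the siSCD#1 and siCTR_1 libraries in a table of their own, so levels are compared within a table only.

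The proteasome degrades proteins tagged with ubiquitin. Its core is a barrel of alpha and beta rings, and the beta subunits PSMB5, PSMB6 and PSMB7 carry the proteolytic sites. The cap recognises tagged proteins, unfolds them with a ring of ATPases (PSMC1 to PSMC6) and removes ubiquitin through the lid metalloprotease PSMD14. Dedicated chaperones help build the core (PSMG1 to PSMG4, with POMP) and the base of the cap (PSMD5, PSMD9 and PSMD10). In mammalian cells the transcription factor NRF1, encoded by NFE2L1, raises many proteasome genes together when proteasome activity is low, and it binds antioxidant response elements.

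The promoters printed here belong to PSMD7, the member called higher in 5 of the 6 treatment comparisons, and to the 5 members called lower in 5 of them. Each is 300 bases around the start site from RefSeq, build GRCh38.p14, read 5' to 3' on the strand of the gene. Capitals mark matches on either strand to TGACNNNGC (the core of the antioxidant response element), CCAAT (the CCAAT box) and CCGGAAG (a motif of ETS factors); these motifs do not overlap each other here. The regions are chr16:74296564-74296863 on the plus strand for PSMD7, chr15:78540155-78540454 on the plus strand for PSMA4 (the first start listed), chr1:35641477-35641776 on the minus strand for PSMB2, chr17:38752491-38752790 on the plus strand for PSMB3, chr6:3258697-3258996 on the plus strand for PSMG4 and chr17:42833147-42833446 on the plus strand for PSME3.
PSMD7: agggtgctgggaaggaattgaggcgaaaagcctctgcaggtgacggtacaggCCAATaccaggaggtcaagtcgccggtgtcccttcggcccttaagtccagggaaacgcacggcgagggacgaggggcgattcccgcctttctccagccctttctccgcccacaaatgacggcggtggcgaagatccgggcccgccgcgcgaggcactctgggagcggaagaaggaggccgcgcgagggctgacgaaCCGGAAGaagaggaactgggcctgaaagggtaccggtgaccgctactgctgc
PSMA4: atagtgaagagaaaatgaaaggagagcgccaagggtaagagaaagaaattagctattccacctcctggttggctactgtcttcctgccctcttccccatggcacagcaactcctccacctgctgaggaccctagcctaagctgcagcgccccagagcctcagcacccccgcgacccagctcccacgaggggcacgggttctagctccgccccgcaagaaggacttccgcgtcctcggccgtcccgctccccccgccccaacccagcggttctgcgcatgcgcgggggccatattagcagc
PSMB2: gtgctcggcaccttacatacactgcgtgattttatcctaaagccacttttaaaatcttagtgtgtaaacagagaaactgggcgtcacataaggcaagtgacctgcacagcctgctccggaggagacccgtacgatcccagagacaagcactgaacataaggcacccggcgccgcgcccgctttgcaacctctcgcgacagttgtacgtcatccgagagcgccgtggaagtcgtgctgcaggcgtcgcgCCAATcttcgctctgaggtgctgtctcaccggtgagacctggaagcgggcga
PSMB3: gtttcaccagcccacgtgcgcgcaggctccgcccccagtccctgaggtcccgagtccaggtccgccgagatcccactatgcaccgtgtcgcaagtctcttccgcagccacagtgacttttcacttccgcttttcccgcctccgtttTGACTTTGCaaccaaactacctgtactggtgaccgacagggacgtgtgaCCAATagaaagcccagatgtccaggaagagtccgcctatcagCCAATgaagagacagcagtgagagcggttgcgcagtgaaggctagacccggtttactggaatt
PSMG4: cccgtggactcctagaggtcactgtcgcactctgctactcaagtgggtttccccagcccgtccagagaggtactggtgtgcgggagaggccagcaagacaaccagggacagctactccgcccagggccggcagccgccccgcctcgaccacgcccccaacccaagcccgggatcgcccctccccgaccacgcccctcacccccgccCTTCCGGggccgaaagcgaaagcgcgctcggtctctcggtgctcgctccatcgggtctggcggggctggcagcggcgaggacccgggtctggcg
PSME3: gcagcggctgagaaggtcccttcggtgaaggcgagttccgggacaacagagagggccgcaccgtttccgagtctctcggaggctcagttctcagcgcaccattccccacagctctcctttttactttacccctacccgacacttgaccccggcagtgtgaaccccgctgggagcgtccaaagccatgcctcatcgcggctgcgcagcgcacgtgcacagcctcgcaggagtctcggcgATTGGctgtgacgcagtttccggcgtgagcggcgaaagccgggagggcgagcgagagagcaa

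The PSMD7 promoter held CCAAT and CCGGAAG, and the PSMB3 promoter held TGACNNNGC and CCAAT. The PSMB2 and PSME3 promoters held CCAAT, the PSMG4 promoter held CCGGAAG, and the PSMA4 window shown held none of the 3 motifs (a later PSMA4 start, not shown, held TGACNNNGC and CCAAT). Promoters were matched for 38 of the 44 genes, without PSMA7, PSMB1, PSMB6, PSMB7, PSMD4 and PSMG3. TGACNNNGC was in 12 of the 38 (31.6%), against 13.3% of 34943 promoters of the same length, counting the first start listed for each member. CCAAT was in 17 (44.7%), against 34.6% of all promoters. CCGGAAG was in 12 (31.6%), against 10.2% of all promoters and 16.1% of the promoters of tested genes. By the first start listed it was in 9 of 16 cap promoters and 0 of 11 core promoters, and a second start listed for the core gene PSMA6 held it. A match describes letters in the window and is no evidence of binding.

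All 44 genes were measured in both tables, with at least 66 reads in each library of the table with SCDi and siSCD#2 and 35 in the siSCD#1 table. Gene reads per library were 4078450 to 6685898 in the SCDi and siSCD#2 table and 2402788 to 7483010 in the siSCD#1 table. In the latter, depth went with treatment. In 501mel it was 2897808 to 3285909 with siSCD#1 and 4146308 to 5986834 with siCTR_1. In IGR37 it was 5375599, 2402788 and 3178366 with siSCD#1, against 4880488 to 7483010 with siCTR_1. SCD mRNA was lower with siSCD#1 by 2.85 log2 units in 501mel and 2.67 in IGR37, and with siSCD#2 by 4.33 and 4.15. With SCDi it was higher in IGR37 (0.63) and changed by 0.29 in 501mel (adjusted p = 0.573). All 7 pigment cell markers were measured, with summed levels of at least 3330 CPM in every library, and CDH1, the only epithelial marker measured of 4, stayed at or below 5.77 CPM. Fibroblast markers summed to at most 19.6 CPM and blood and endothelial markers to at most 91.7 CPM. The IGR37 siSCD#2 libraries stood apart: their pairwise correlations were 0.943 to 0.979 over 6959 genes, against at least 0.968 in the other 11 groups, and the mean SD over the proteasome genes was 0.223, against 0.0803 to 0.134.

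Changes are log2 differences ± SE, treated minus control, from limma fitted over all genes of a table with 3 libraries per group. A gene is called higher or lower where its Benjamini-Hochberg adjusted p was under 0.05. Nothing in the labels ties the 3 libraries of a group to separate cultures, and their spread, on which p rests, may be technical. In bulk RNA, fewer cells with a transcript and less transcript per cell cannot be told apart.

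With SCDi, most proteasome genes were lower in IGR37 and none was called in 501mel. In IGR37, 27 of 44 were lower and 5 higher, against 23.1% of all genes lower and 20.9% higher, and the median change was -0.34 (0.00 over all genes). In 501mel 0 were higher and 0 lower, against 0.232% of all genes higher and 0.0599% lower, and 2 (PSMA1 and PSMC6) had an unadjusted p under 0.05. In IGR37 12 of 15 core genes were lower and 1 higher (median -0.59), and 11 of 17 cap genes were lower and 2 higher (median -0.34). Of 7 assembly factors 3 were lower and 2 higher (median -0.04), and of the 5 further regulators 1 was lower. The count of rises was 3 in place of 5 without DMSO replicate 1 or 2 or SCDi replicate 2 or 3.

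Marker lists moved in the same IGR37 libraries. The 7 pigment markers summed to 4290 to 4530 CPM with SCDi and 6010 to 6090 CPM with DMSO. The 3 measured fibroblast markers of 5 summed to 3.42 to 5.48 CPM with SCDi and 15.2 to 17.2 CPM with DMSO, and COL1A1 had 0 reads in every SCDi library. The 3 measured blood and endothelial markers of 5 summed to 51.9 to 68.3 CPM with SCDi and 11.8 to 18.7 CPM with DMSO, mostly through CD68, at 5.90, 5.58 and 5.45 log2 CPM with SCDi, against 3.21, 3.51 and 3.73 with DMSO. This sum was also higher with SCDi in 501mel, where 0 members were called. There it was 84 to 91.7 CPM with SCDi and 52.6 to 66.9 CPM with DMSO. CD68 in 501mel was at 6.49, 6.42 and 6.39 log2 CPM with SCDi, against 6.04, 5.69 and 5.81 with DMSO. The 501mel pigment sum was 5660 to 5780 CPM with SCDi and 5620 to 5740 CPM with DMSO. With the siRNAs the pigment sum was lower than with their controls in both lines. In 501mel it was 3330 to 3400 CPM with siSCD#1 and 4120 to 4340 with siCTR_1. In IGR37 it was 6290 to 6740 with siSCD#1 and 6900 to 7170 with siCTR_1. For siSCD#2 it was 3760 to 3910 against 4460 to 4710 with siCTR in 501mel, and 3600 to 3930 against 7400 to 7690 in IGR37. The list did not move as a whole. With siSCD#2, MLANA, DCT, TYRP1, SOX10 and MITF lay below siCTR in both lines, but TYR lay above it. TYR was at 8.96, 8.98 and 8.85 log2 CPM against 8.52, 8.32 and 8.28 in 501mel, and at 8.59, 8.98 and 8.61 against 7.87, 7.99 and 7.88 in IGR37. PMEL lay above siCTR_1 with siSCD#1 in IGR37. The blood and endothelial sum was 4.55 to 7.11 CPM with siSCD#2 and 16 to 18.7 CPM with siCTR in IGR37, and 23.2 to 32.4 CPM with siSCD#2 and 46.3 to 85.1 CPM with siCTR in 501mel. LUM, the only fibroblast marker measured beside siSCD#1, was at 5.48 to 6.21 CPM with siSCD#1 and 1.71 to 2.67 CPM with siCTR_1 in 501mel. The part of these shifts in the proteasome changes was not tested.

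**Figure D1:**
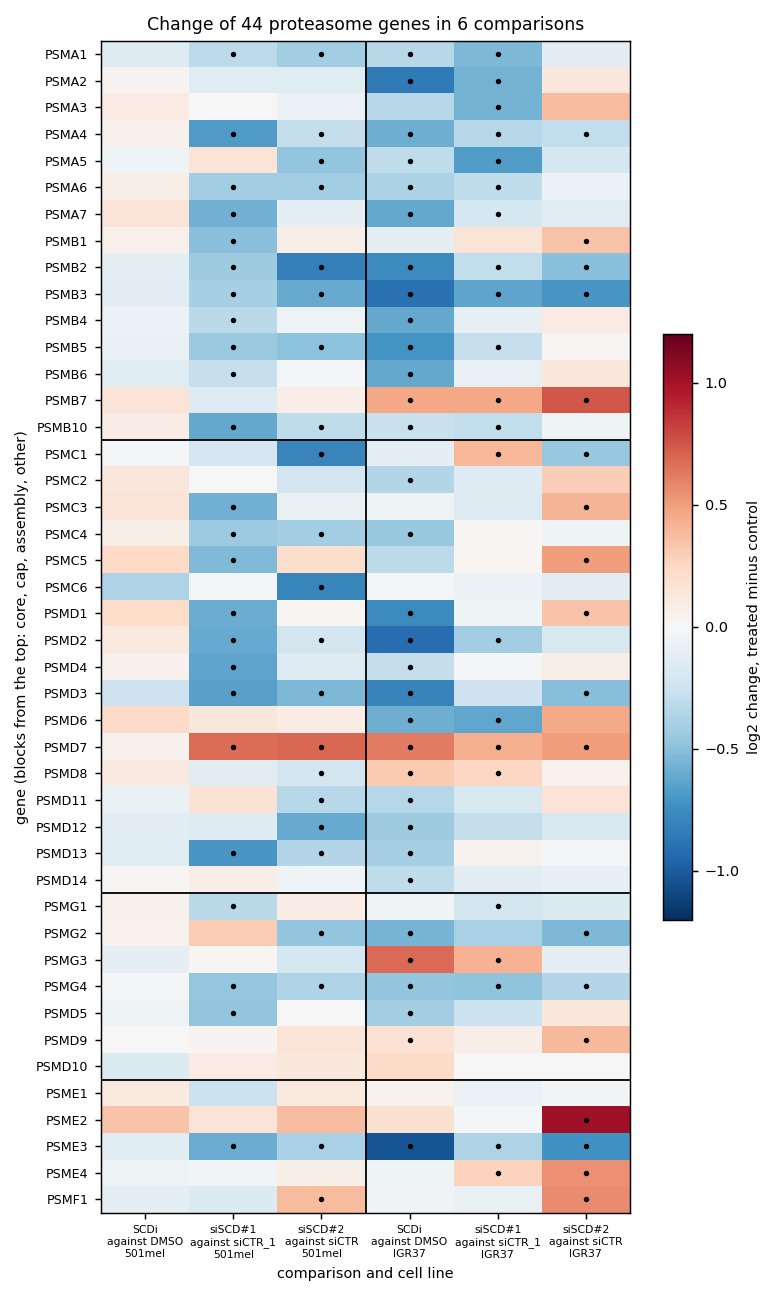
Log2 change, treated minus control, of the 44 proteasome genes (rows, grouped by class) in 6 comparisons (columns); black dots mark adjusted p under 0.05. The SCDi column of 501mel holds no dot, and PSMD7 is higher in the 5 other columns.

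PSME3 encodes an activator of the core that acts in the nucleus without the cap. PSME3 was at 6.30, 6.36 and 6.56 log2 CPM with SCDi, against 7.44, 7.41 and 7.49 with DMSO (-1.04 ± 0.10, adjusted p = 3.33e-09). PSMD2 is a scaffold of the cap base. PSMD2 was at 8.17, 8.14 and 8.24 log2 CPM with SCDi, against 9.09, 8.96 and 9.23 with DMSO (-0.91 ± 0.09, adjusted p = 3.25e-09). PSMB3 is a structural beta subunit. PSMB3 was at 5.36, 5.20 and 5.62 log2 CPM with SCDi, against 6.39, 6.29 and 6.20 with DMSO (-0.90 ± 0.14, adjusted p = 8.28e-06). In all 3 genes every SCDi library lay below every DMSO library. Of the proteolytic subunits, PSMB5 was lower by 0.72 ± 0.06 (adjusted p = 6e-10) and PSMB6 by 0.61 ± 0.08 (adjusted p = 1.72e-06). PSMB10, which replaces PSMB7 in immunoproteasomes, changed by -0.26 ± 0.10 (adjusted p = 0.0416); without DMSO replicate 3 it changed by -0.13 (adjusted p = 0.325), and 8 other settings also ended the call.

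The rises in IGR37 with SCDi were led by PSMG3, PSMD7 and PSMB7. PSMG3 is a chaperone of the core. PSMG3 was at 9.33, 9.32 and 9.37 log2 CPM with SCDi, against 8.64, 8.60 and 8.76 with DMSO (0.68 ± 0.09, adjusted p = 4.64e-07). PSMD7 is a lid subunit that pairs with PSMD14. PSMD7 was at 6.74, 6.63 and 6.62 log2 CPM with SCDi, against 6.07, 6.16 and 5.90 with DMSO (0.62 ± 0.11, adjusted p = 6.19e-05). PSMB7 carries the trypsin-like site. PSMB7 was at 9.57, 9.52 and 9.49 log2 CPM with SCDi, against 8.98, 8.92 and 9.29 with DMSO (0.46 ± 0.17, adjusted p = 0.029). All SCDi libraries of the 3 genes lay above all DMSO libraries. The PSMB7 call was lost when DMSO replicate 1 or 2 or any 1 SCDi library was left out (adjusted p 0.0533 to 0.112), without the variance trend (0.0676) and with median centring (0.0568). PSMG3 overlaps PSMG3-AS1 on the other strand, which changed by 0.43 (adjusted p = 0.545); the strand setting of the counting is not given in the sources used here.

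With siSCD#1 more members were lower than higher in both lines. In 501mel 23 of 44 were lower and 1 higher, against 22% of all genes lower and 20.9% higher (median of the members -0.29). In IGR37 16 were lower and 6 higher, against 19.4% lower and 16.7% higher (median -0.15). Of the 15 core genes, 11 were lower in 501mel and 11 in IGR37. Of the 17 cap genes, 8 were lower in 501mel and 2 in IGR37. In IGR37 more cap genes were called higher than lower. These were PSMD7, PSMC1 (mean 6.17 log2 CPM with siSCD#1, 5.77 with siCTR_1) and PSMD8 (9.02 and 8.77). Without the authors' library scaling the median of all genes in 501mel was 0.23 in place of 0.01, and 15 members were lower and 7 higher, against 14.1% and 31.4% of all genes. The median of the members minus that of all genes was -0.30 with the scaling and -0.32 without it. PSMB3 in 501mel was called lower with the scaling (-0.40 ± 0.13) and not without it (-0.19, adjusted p = 0.227), nor without siCTR_1 replicate 1 or 2 or siSCD#1 replicate 1 or 2 (-0.39 to -0.30).

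In 501mel the largest falls with siSCD#1 were in 2 lid subunits and an alpha subunit. PSMD13 was at 8.11, 8.09 and 8.07 log2 CPM with siSCD#1, against 8.88, 8.78 and 8.72 with siCTR_1 (-0.70 ± 0.08, adjusted p = 2.97e-06). PSMA4 was at 7.02, 6.84 and 6.94 log2 CPM with siSCD#1, against 7.74, 7.53 and 7.57 with siCTR_1 (-0.68 ± 0.11, adjusted p = 8.4e-05). PSMD3 was at 9.04, 8.73 and 8.73 log2 CPM with siSCD#1, against 9.64, 9.29 and 9.53 with siCTR_1 (-0.65 ± 0.11, adjusted p = 0.000246). None of these siSCD#1 libraries reached a siCTR_1 library. The only rise was in the lid subunit PSMD7. PSMD7 was at 7.43, 7.36 and 7.55 log2 CPM with siSCD#1, against 6.79, 6.78 and 6.79 with siCTR_1 (0.67 ± 0.08, adjusted p = 4.78e-06). Its groups did not overlap either.

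In IGR37 the largest falls with siSCD#1 were in the alpha subunit PSMA5, the beta subunit PSMB3 and the lid subunit PSMD6. PSMA5 was at 5.18, 5.11 and 5.40 log2 CPM with siSCD#1, against 5.93, 5.96 and 5.80 with siCTR_1 (-0.67 ± 0.14, adjusted p = 0.00154). PSMB3 was at 5.88, 5.65 and 5.37 log2 CPM with siSCD#1, against 6.24, 6.35 and 6.21 with siCTR_1 (-0.64 ± 0.13, adjusted p = 0.00111). PSMD6 was at 5.77, 5.71 and 5.86 log2 CPM with siSCD#1, against 6.29, 6.56 and 6.36 with siCTR_1 (-0.62 ± 0.13, adjusted p = 0.00104). All siSCD#1 libraries of these genes were below all siCTR_1 libraries. The 3 largest rises were in genes that also led with SCDi. PSMB7 was at 9.48, 9.24 and 9.57 log2 CPM with siSCD#1, against 9.03, 8.87 and 9.00 with siCTR_1 (0.46 ± 0.10, adjusted p = 0.00165). PSMD7 was at 6.63, 6.70 and 6.81 log2 CPM with siSCD#1, against 6.35, 6.23 and 6.28 with siCTR_1 (0.43 ± 0.08, adjusted p = 0.000407). PSMG3 was at 9.57, 9.64 and 9.40 log2 CPM with siSCD#1, against 9.16, 9.01 and 9.19 with siCTR_1 (0.41 ± 0.09, adjusted p = 0.00141). Here all siSCD#1 libraries lay above all siCTR_1 libraries. All 7 alpha subunits were lower in IGR37 with siSCD#1, with changes of -0.21 (PSMA7) to -0.67 (PSMA5); the PSMA7 call was lost in 8 settings (adjusted p 0.0656 to 0.115).

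**Figure D2:**
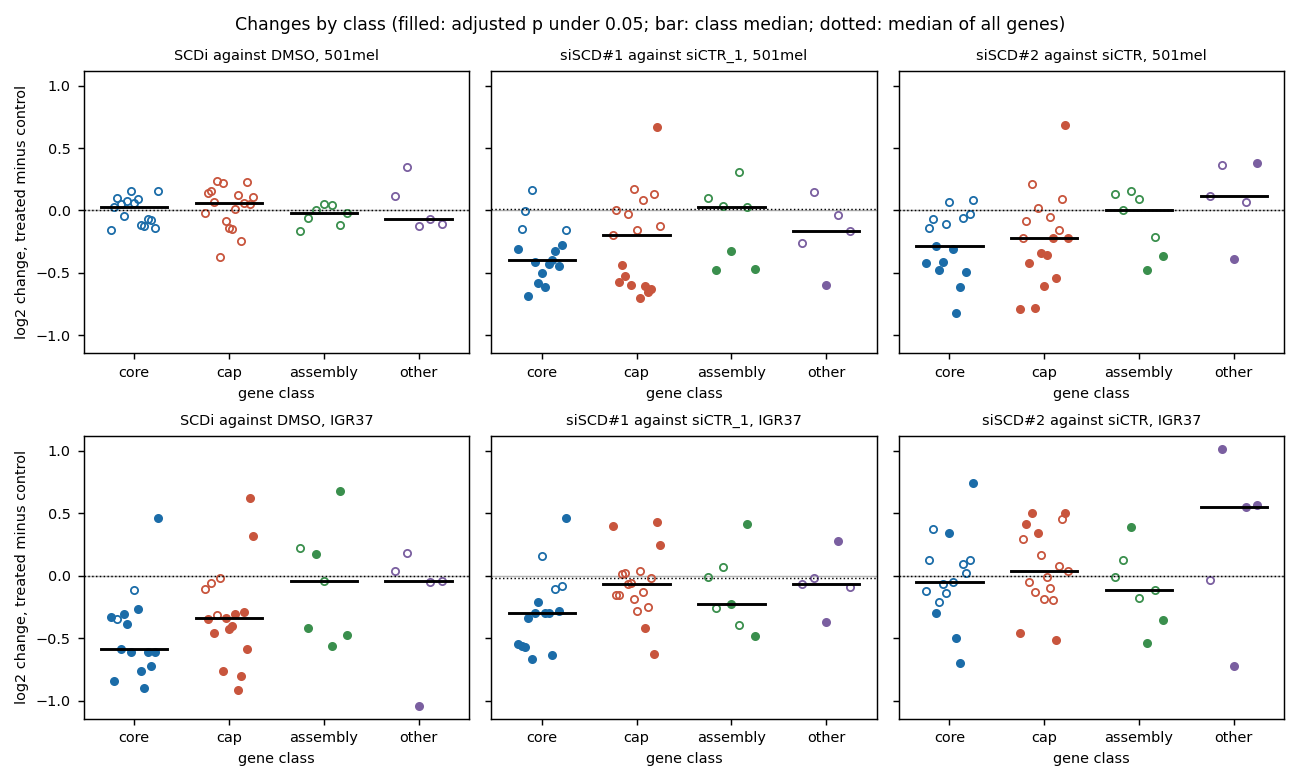
Log2 change of each proteasome gene (points) by class in the 6 comparisons, with class medians as bars and the median of all genes as a dotted line. The core medians were -0.59 with SCDi and -0.30 with siSCD#1 in IGR37, and -0.40 with siSCD#1 in 501mel.

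With siSCD#2, 20 of 44 members were lower and 2 higher in 501mel, against 19.5% of all genes lower and 18.3% higher (median of the members -0.18). In IGR37 8 were lower and 10 higher, against 22.7% lower and 23.2% higher (median -0.01), shares close to those of all genes. In 501mel 8 of 15 core and 9 of 17 cap genes were lower. In IGR37 3 core genes were lower and 2 higher, and 2 cap genes were lower and 4 higher. Without the library scaling 16 were lower and 8 higher in IGR37, against 27.3% and 18.9% of all genes, whose median was then -0.10. With siSCD#2 replicate 2 left out, 14 members were higher in IGR37.

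In 501mel the largest falls with siSCD#2 were in the structural beta subunit PSMB2 and the ATPases PSMC1 and PSMC6. PSMB2 was at 7.35, 7.30 and 7.32 log2 CPM with siSCD#2, against 8.27, 8.11 and 8.04 with siCTR (-0.82 ± 0.09, adjusted p = 4.94e-08). PSMC1 was at 4.92, 5.18 and 5.28 log2 CPM with siSCD#2, against 5.90, 5.91 and 5.95 with siCTR (-0.79 ± 0.16, adjusted p = 0.000265). PSMC6 was at 5.21, 5.28 and 5.43 log2 CPM with siSCD#2, against 6.28, 6.11 and 5.86 with siCTR (-0.78 ± 0.12, adjusted p = 1.04e-05). All siSCD#2 libraries of these genes lay below all siCTR libraries. PSMC1 has 13 named pseudogenes, none of them in the tables, so reads from copies could not be told apart from its own. The same limit holds for the other members with named pseudogenes, among them PSMD7, PSMB7 and PSMB3. In all, 12 members have 32 named pseudogenes. Both rises were free of overlap, in PSMD7 and in PSMF1, an inhibitor of the core in vitro. PSMD7 was at 7.07, 7.19 and 7.31 log2 CPM with siSCD#2, against 6.35, 6.46 and 6.70 with siCTR (0.69 ± 0.11, adjusted p = 2.37e-05). PSMF1 was at 6.77, 6.94 and 6.78 log2 CPM with siSCD#2, against 6.46, 6.41 and 6.47 with siCTR (0.38 ± 0.08, adjusted p = 0.000523).

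In IGR37 the 3 largest rises with separate groups under siSCD#2 were in core-binding regulators. PSME2 pairs with PSME1 in the interferon-induced activator. PSME2 was at 5.26, 4.27 and 5.09 log2 CPM with siSCD#2, against 3.82, 3.53 and 4.22 with siCTR (1.02 ± 0.22, adjusted p = 0.000464). PSMF1 was at 6.32, 6.18 and 6.36 log2 CPM with siSCD#2, against 5.68, 5.66 and 5.82 with siCTR (0.57 ± 0.08, adjusted p = 2.82e-06). PSME4 is a nuclear core activator. PSME4 was at 7.07, 6.93 and 7.09 log2 CPM with siSCD#2, against 6.55, 6.47 and 6.42 with siCTR (0.55 ± 0.07, adjusted p = 1.06e-06). PSME1 was called in none of the 6 comparisons. The largest falls were in PSME3, PSMB3 and the core chaperone PSMG2. PSME3 was at 6.62, 6.73 and 6.33 log2 CPM with siSCD#2, against 7.19, 7.32 and 7.35 with siCTR (-0.73 ± 0.10, adjusted p = 1.26e-06). PSMB3 was at 5.54, 5.89 and 5.09 log2 CPM with siSCD#2, against 6.19, 6.28 and 6.15 with siCTR (-0.70 ± 0.14, adjusted p = 0.000195). PSMG2 was at 4.16, 4.32 and 4.29 log2 CPM with siSCD#2, against 4.71, 4.75 and 4.93 with siCTR (-0.54 ± 0.17, adjusted p = 0.0111). The groups of these 6 genes did not overlap, and the PSMG2 call was lost without siCTR replicate 3. PSMB7 was also called higher, but with overlap between its groups. PSMB7 was at 9.67, 8.80 and 9.93 log2 CPM with siSCD#2, against 8.65, 8.84 and 8.68 with siCTR (0.74 ± 0.17, adjusted p = 0.000864). That call was lost when only the groups compared were fitted (adjusted p = 0.0868), and the change was 0.49 with a replicate block, which leaves out the unnumbered library, and ran from 0.51 without the unnumbered siSCD#2 library to 1.08 without replicate 2.

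**Figure D3:**
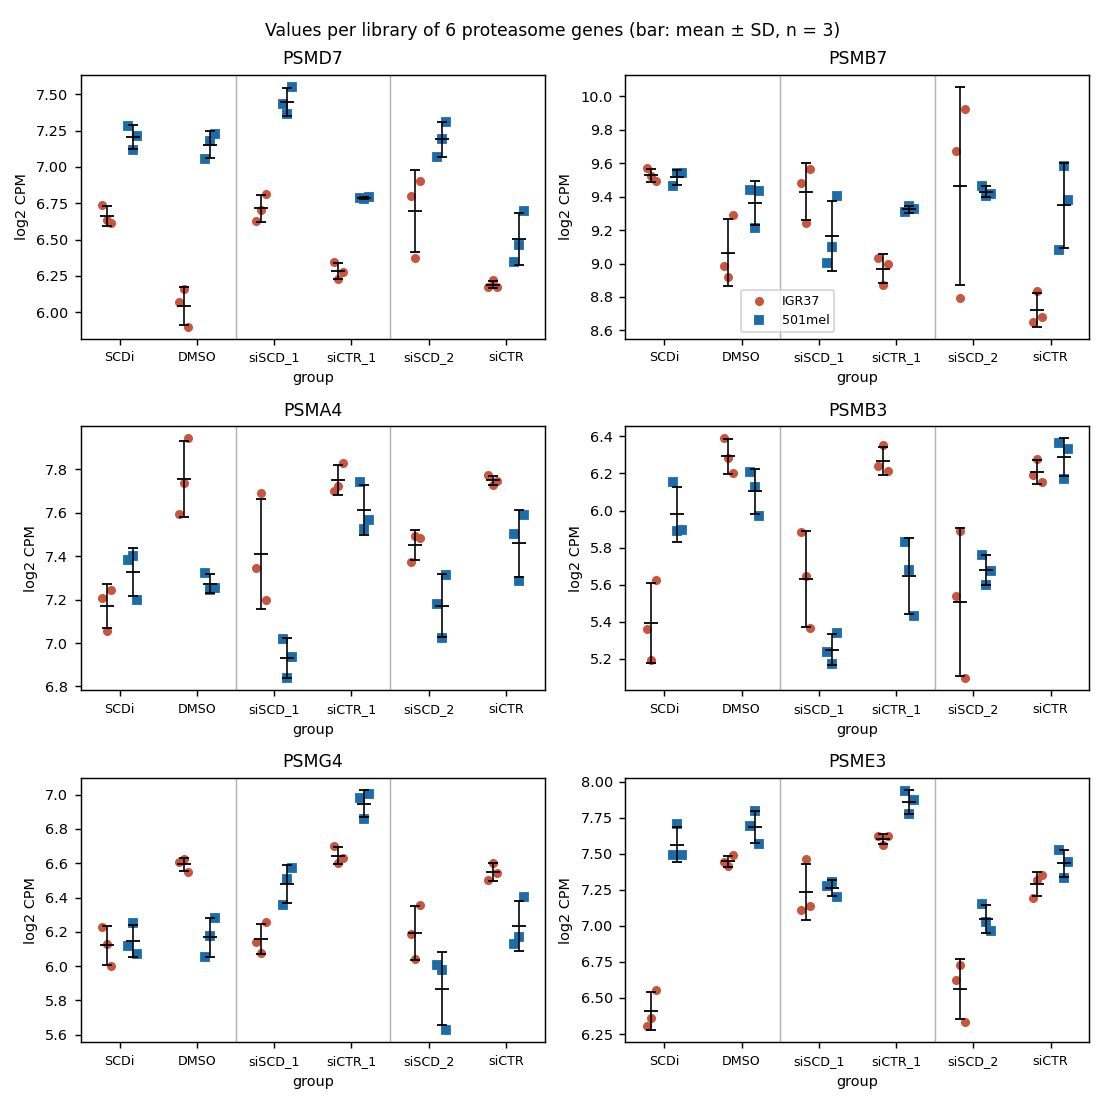
Level in log2 CPM of 6 proteasome genes in each library (points) by group and line, with the mean and SD of 3 libraries. PSMD7 libraries lie above those of their control in each pair except SCDi in 501mel; siSCD_1 and siCTR_1 come from a separately normalised table.

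Across the 6 comparisons 29 members were lower at least once and never higher, 7 were higher at least once and never lower, 6 were called in both directions, and PSMD10 and PSME1 were called in none. The 7 were PSMB7, PSMD7, PSMD9, PSMG3, PSME2, PSME4 and PSMF1. PSMA4, PSMB2, PSMB3, PSMG4 and PSME3 were lower in all comparisons except SCDi in 501mel. PSMB2 changed by -0.76 ± 0.09 with SCDi in IGR37, by -0.43 ± 0.07 and -0.30 ± 0.07 with siSCD#1 in 501mel and IGR37, and by -0.50 ± 0.09 with siSCD#2 in IGR37. PSMA4 changed by -0.59 ± 0.09 with SCDi in IGR37, by -0.34 ± 0.11 with siSCD#1 in IGR37, and with siSCD#2 by -0.29 ± 0.09 in 501mel and -0.30 ± 0.09 in IGR37. PSME3 changed with siSCD#1 by -0.60 ± 0.09 in 501mel and -0.37 ± 0.09 in IGR37, and with siSCD#2 by -0.39 ± 0.10 in 501mel. Several of these smaller changes lay near the threshold. The PSMA4 call with siSCD#1 in IGR37 was lost when only the groups compared were fitted (0.0856), without the variance trend (0.0678) and without siCTR_1 replicate 3 or siSCD#1 replicate 1 or 3 (0.0684 to 0.0938), and that with siSCD#2 in IGR37 without siSCD#2 replicate 1 (0.0528). The PSMA4 call with siSCD#2 in 501mel (adjusted p = 0.0183) was lost when siCTR replicate 1 or 3 or siSCD#2 replicate 2 was left out (0.0592 to 0.119) and when only the groups compared were fitted (0.0985).

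The 3 proteolytic subunits were not called alike. PSMB5, which carries the chymotrypsin-like site, was lower in 4 comparisons, with siSCD#1 by 0.45 in 501mel and 0.28 in IGR37 and with siSCD#2 by 0.49 in 501mel, while with siSCD#2 in IGR37 it changed by 0.02. PSMB6, which carries the caspase-like site, was lower with SCDi in IGR37 and with siSCD#1 in 501mel (-0.28 ± 0.08), where the call was lost without library scaling (-0.07), with quantile normalisation (-0.11), and without siCTR_1 replicate 1 or siSCD#1 replicate 3 (-0.24 each). PSMB7 was called higher in IGR37 under all 3 treatments, with the losses given for SCDi and siSCD#2, and was not called in 501mel, where it changed by 0.16, -0.16 and 0.08. PSMB10 was lower with siSCD#1 by 0.62 in 501mel and 0.30 in IGR37, and by 0.31 with siSCD#2 in 501mel. The last 2 of these calls were each lost without any 1 of 4 libraries (adjusted p 0.0511 to 0.105).

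Among the assembly factors, PSMG3 and its partner PSMG4 were called in opposite directions in IGR37 with SCDi and siSCD#1. PSMG4 changed by -0.47 ± 0.11 with SCDi and -0.48 ± 0.08 with siSCD#1, where PSMG3 was higher. With siSCD#2 in IGR37 PSMG3 averaged 8.85 log2 CPM, against 8.97 with siCTR, and was not called. There PSMG4 averaged 6.20 log2 CPM, against 6.55, and was called lower. In 501mel PSMG4 was lower with siSCD#1 (-0.47 ± 0.08) and siSCD#2 (-0.36 ± 0.11); the siSCD#2 call was lost when only the groups compared were fitted (adjusted p = 0.084) and without siCTR replicate 3 (-0.28) or siSCD#2 replicate 3 (-0.24). PSMG3 was not called in 501mel with either siRNA (0.03 and -0.21). PSMG1 was lower with siSCD#1 in 501mel (-0.32 ± 0.08) and IGR37 (-0.22 ± 0.08). Without library scaling neither PSMG1 call held (-0.12 and -0.19), and the IGR37 call was also lost without siCTR_1 replicate 1 or 2 or siSCD#1 replicate 1 or 3 (-0.25 to -0.15). Of the chaperones of the cap base, PSMD5 was lower with SCDi in IGR37 (-0.41) and with siSCD#1 in 501mel (-0.47), and PSMD9 was higher in IGR37 with SCDi (0.17) and siSCD#2 (0.39). The PSMD9 call with SCDi was lost with median centring (0.12, adjusted p = 0.19) and without DMSO replicate 1 or 2 or SCDi replicate 2 or 3. The PSMD5 call with SCDi was lost without DMSO replicate 1 or 2 or SCDi replicate 1 or 2 (adjusted p 0.0583 to 0.106). That with siSCD#1 was lost without library scaling (-0.27), and was -0.31 without siSCD#1 replicate 3. Without library scaling, PSMG3 in 501mel was higher with siSCD#1 (0.23, adjusted p = 0.0235) and lower with siSCD#2 (-0.26, adjusted p = 0.00902). In the annotation (GENCODE 29, hg38) 13 members have another tested gene overlapping an exon, so reads at those places are uncertain. On the other strand PSME3 overlaps BECN1, PSMG4 overlaps SLC22A23 and TUBB2B, and PSMA2 overlaps MRPL32. So do PSMD13 (SIRT3), PSME2 (RNF31), PSME4 (ACYP2), PSMG2 (CEP76 and SPIRE1) and PSMC1 (NRDE2), with the gene in brackets. PSMD9 overlaps WDR66 on the same strand.

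**Figure D4:**
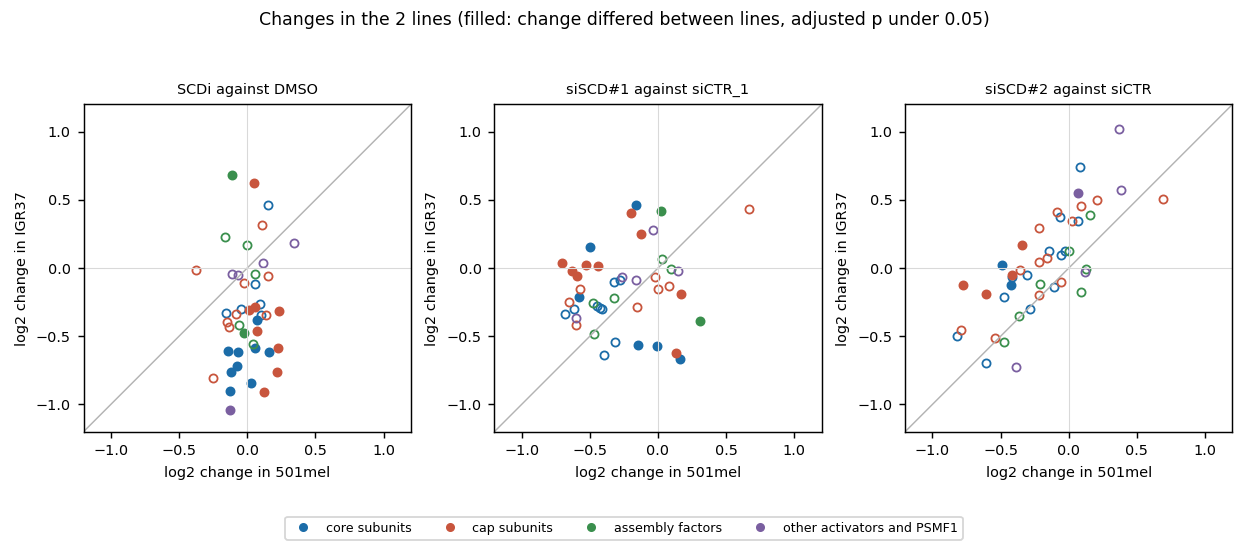
Log2 change of each proteasome gene in IGR37 (vertical) against that in 501mel (horizontal) under the 3 treatments, filled where the change differed between the lines at adjusted p under 0.05. With SCDi 18 filled points lie below the line of equal change and 2 above it.

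The difference in change between the lines, IGR37 minus 501mel, was tested directly. With SCDi it passed for 20 members, 18 of them more negative in IGR37 (27.6% of all genes passed in either direction), led by PSMD2 (-1.03 ± 0.12, adjusted p = 5.42e-07). The positive ones were PSMG3 (0.79 ± 0.12) and PSMD7 (0.57 ± 0.16). With siSCD#1 it passed for 17, of which 6 were negative and 11 positive (20.3% of all genes), with PSMA5 (-0.83 ± 0.20) and PSMD13 (0.74 ± 0.11) at the ends; 11 passed without IGR37 siCTR_1 replicate 2. With siSCD#2 it passed for 7, all positive (21.1% of all genes), led by PSMC6 (0.65 ± 0.17; 0.49 and not past with a replicate block); without IGR37 siSCD#2 replicate 1 or 2 the count was 4 or 17.

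The changes under siSCD#2 and SCDi, each against its own control, were also compared. In IGR37 the siSCD#2 change minus the SCDi change passed for 20 members, 18 of them positive (38.8% of all genes), led by the cap scaffold PSMD1 (1.11 ± 0.16, adjusted p = 3.17e-06). In 501mel it passed for 11, of which 9 were negative (21% of all genes), led by PSMC1 (-0.77 ± 0.22, adjusted p = 0.0143), and the positive ones were PSMD7 (0.64 ± 0.16) and PSMF1 (0.49 ± 0.11). Such a difference also holds any difference between the controls. PSMD1 in IGR37 averaged 7.93 log2 CPM with DMSO and 7.47 with siCTR, and 7.17 with SCDi and 7.81 with siSCD#2.

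Control libraries of the lines differed in most members, as in most genes. Under DMSO 10 were higher and 20 lower in IGR37 than in 501mel (60.8% of all genes differed), under siCTR 8 and 24 (62.6%), and under siCTR_1 12 and 21 (60.4%). Under DMSO PSMD7 averaged 6.04 ± 0.13 log2 CPM in IGR37 and 7.15 ± 0.09 in 501mel (SD, n = 3 each), a difference of -1.11 ± 0.11 (adjusted p = 4.86e-09 by limma). PSMD2 differed in the other direction (0.76 ± 0.09).

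The control siRNA was set against DMSO after the values had been seen. In 501mel 2 members were higher and 3 lower with siCTR (11.3% of all genes differed), and in IGR37 1 was higher and 10 lower (15.5%). PSMD7 in 501mel averaged 6.50 ± 0.18 log2 CPM with siCTR and 7.15 ± 0.09 with DMSO (SD, n = 3 each), a difference of -0.65 ± 0.11 (adjusted p = 0.000273 by limma), and its mean with siSCD#2 was 7.19 ± 0.12. The count in 501mel was 3 without DMSO replicate 1 or 3 or siCTR replicate 1, and that in IGR37 was 7 without siCTR replicate 3. In IGR37 PSME4 differed by -0.53 ± 0.07 and PSMF1 by -0.36 ± 0.08, 2 of the genes that were higher with siSCD#2 against siCTR.

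The share of gene reads that fell on the 44 genes describes them without library scaling. In IGR37 it was 0.864% ± 0.00447 with SCDi and 1.04% ± 0.0272 with DMSO (SD, n = 3 each). In 501mel it was 0.967% ± 0.0188 with siSCD#2 and 1.12% ± 0.011 with siCTR, and 0.976% ± 0.011 with siSCD#1 and 1.08% ± 0.0037 with siCTR_1. With the siRNAs the means lay closer in IGR37, at 1.02% ± 0.01 with siSCD#1 and 1.05% ± 0.0131 with siCTR_1, and 0.895% ± 0.0402 with siSCD#2 and 0.94% ± 0.00537 with siCTR, and in 501mel the share was 1.04% ± 0.0139 with SCDi and 1.04% ± 0.0224 with DMSO. Core genes held 0.344% ± 0.00805 of gene reads in IGR37 with SCDi and 0.431% ± 0.0198 with DMSO, and cap genes 0.363% ± 0.00482 and 0.47% ± 0.00501. Assembly factors held 0.121% ± 0.00118 with SCDi and 0.0939% ± 0.00238 with DMSO, the opposite order, but without PSMG3 the other 6 held 0.0491% ± 0.00107 with SCDi and 0.05% ± 0.0013 with DMSO. These shares are descriptions, with no test.

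**Figure D5:**
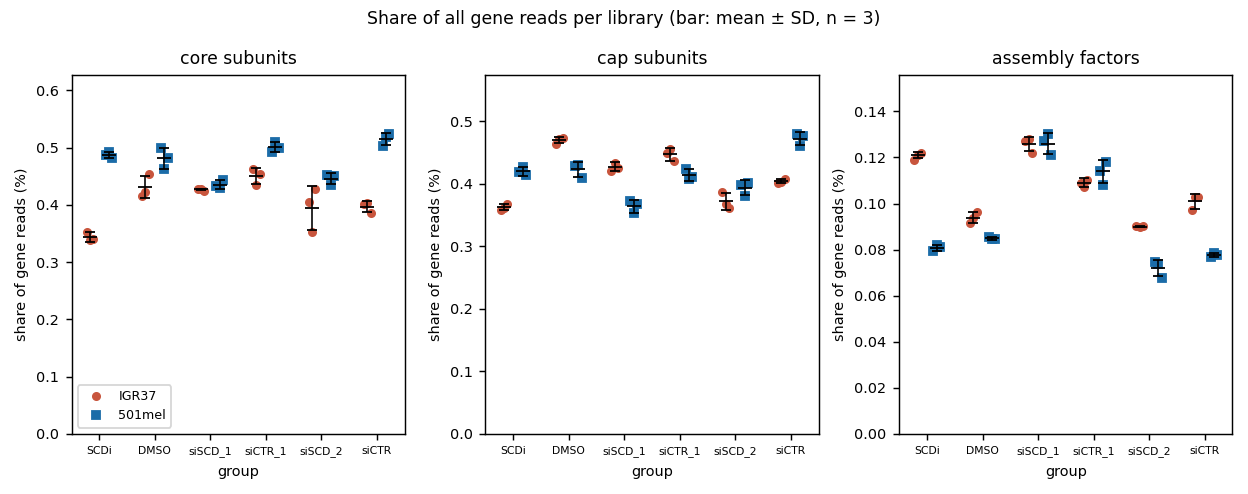
Percent of all gene reads in core, cap and assembly genes in each library (points) by group and line, with the mean and SD of 3 libraries. In IGR37 the SCDi libraries lie below the DMSO libraries for core and cap genes and above them for assembly factors, where PSMG3 carries the difference.

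Of 6 partners of the proteasome outside the family, 3 were lower and 0 higher with SCDi in IGR37, against 23.1% and 20.9% of all genes. POMP, which helps the core mature, was lower with SCDi in IGR37 (-0.60 ± 0.07), with siSCD#1 in 501mel (-0.75 ± 0.07) and IGR37 (-0.20 ± 0.07; lost in 8 settings, adjusted p 0.0588 to 0.0967), and with siSCD#2 in 501mel (-0.31 ± 0.07). The cap deubiquitinase USP14 was lower with SCDi in IGR37 (-0.71 ± 0.08), and UCHL5, another cap deubiquitinase, with siSCD#1 in IGR37 (-0.39 ± 0.09). The ubiquitin receptor ADRM1 was lower with siSCD#1 in 501mel (-0.54 ± 0.07) and higher with siSCD#2 in IGR37 (0.83 ± 0.12). In IGR37 ADRM1 was at 7.64, 7.17 and 7.63 log2 CPM with siSCD#2 and 6.51, 6.79 and 6.65 with siCTR. With DMSO it was at 7.26, 7.25 and 7.43, above siCTR. SHFM1, a small cap subunit, was lower in IGR37 with SCDi (-0.55) and siSCD#1 (-0.41) and higher with siSCD#2 in 501mel (0.63) and IGR37 (0.78). All of these SHFM1 calls except that with siSCD#1 were lost in at least 1 setting, such as leaving out any 1 DMSO library (SCDi), siCTR replicate 1 (501mel) or fitting only the groups compared (IGR37, siSCD#2). PAAF1 was called in none.

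NFE2L1 was higher in all comparisons except SCDi in 501mel, where it changed by 0.05. In IGR37 it averaged 7.05 ± 0.04 log2 CPM with SCDi and 6.22 ± 0.09 with DMSO (SD, n = 3 each), a change of 0.83 ± 0.09 (adjusted p = 1.4e-08 by limma). Its other changes were 0.62 ± 0.10 and 0.68 ± 0.10 with siSCD#1 in 501mel and IGR37, and 0.59 ± 0.09 and 1.33 ± 0.09 with siSCD#2. VCP, which extracts tagged proteins for the proteasome, was higher with siSCD#2 in 501mel (0.55) and IGR37 (0.67). With siSCD#1 in 501mel it was called lower (-0.16), but it was 0.027 with quantile normalisation and 0.043 without library scaling, neither past the threshold. NGLY1, which processes NRF1, was called in none.

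Of 18 measured ubiquitin and shuttle genes, 6 were higher and 4 lower with SCDi in IGR37, led by ZFAND2A (1.89), with NPLOC4 (-0.75) and UFD1L (-0.63) lowest. With siSCD#1 in IGR37 6 were higher and 3 lower, with ZFAND2A (1.84) highest and UBE3C (-1.12) and NPLOC4 (-0.31) lowest, the NPLOC4 call being lost without siCTR_1 replicate 1 or 3 or siSCD#1 replicate 3 (-0.29 to -0.24). In 501mel siSCD#1 gave 3 higher and 6 lower, with ZFAND2A (1.04) and KIAA0368 (0.46; lost without siCTR_1 replicate 1 or siSCD#1 replicate 3) highest and UBE3C (-1.39) and UBB (-0.71) lowest. With siSCD#2 3 were higher and 4 lower in 501mel, where ZFAND5 (0.58) was among the higher genes and NPLOC4 (-1.11) and ZFAND2A (-0.95) were lowest. In IGR37 9 were higher and 3 lower, where KIAA0368 (1.32) and ZFAND2A (1.12) were highest and NPLOC4 (-0.53) and UBQLN1 (-0.35) lowest. With SCDi in 501mel 0 of 18 were called by limma, against 0.232% of all genes higher and 0.0599% lower. Over all genes, 20.9% were higher and 23.1% lower with SCDi in IGR37. With siSCD#1 the shares were 20.9% and 22% in 501mel, and 16.7% and 19.4% in IGR37. With siSCD#2 they were 18.3% and 19.5% in 501mel, and 23.2% and 22.7% in IGR37. Several counts of the 18 genes lay near these shares, and the list was not tested as a set.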

How the data were processed

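RNA of 36 libraries was measured by 3' tag sequencing (QuantSeq, per the labels' protocols). The submitters' processing notes name STAR, edgeR and the build hg38, with versions and strand setting not given in the sources used here. The authors deposited log2 values in 2 tables; on inspection they were log2 CPM with a prior count of 0.25, scaled per library by 0.916 to 1.07. Reads recovered from them served for depth, shares and the voom alternative. The main changes rest on the authors' scaled library sizes, and the factors above are set against all reads, spike-ins included. Only the fit without library scaling took gene reads alone as its total, so it differs from the main fit in both respects. Changes are relative in either case. Spike-ins, 2.43 to 7.21% of reads, were left out of the tests. In 501mel their share was 5.13 to 5.71% with siSCD#1 (siCTR_1 3.76 to 4.29%) and 5.16 to 6.96% with siSCD#2 (siCTR 3.81 to 5.08%). In IGR37 it was 4.58 to 5.5% with siSCD#1 (siCTR_1 4 to 4.75%) and 5.05 to 7.21% with siSCD#2 (siCTR 4.35 to 4.83%). With SCDi it was 2.43 to 3.61% in 501mel (DMSO 3.57 to 4.37%) and 4.3 to 4.83% in IGR37 (DMSO 3.76 to 4.59%).

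Each table was fitted over all its libraries with limma 3.58.1 (R 4.3.3; lmFit, contrasts.fit, and eBayes with a trend in the variance), two-sided, adjusting p by Benjamini-Hochberg over all genes. The scripts were tested on simulated data. Settings varied were the libraries fitted, the variance trend, the pseudocount, the filter, quantile and median normalisation, voom, a replicate block and the libraries left out. The fit without library scaling and the comparison of siCTR with DMSO were added after values were seen.

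The members and lists were chosen with earlier results of these data known. Values per library are given for the 3 largest rises and falls of each comparison among called members whose groups did not overlap, and PSMB7 with siSCD#2 in IGR37 was added. One IGR37 siSCD#2 column could be tied to its group only, so it carries no replicate number. Values of some genes of the ubiquitin and shuttle list are not reported here.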

Additional observations from a re-analysis of the deposited data

Results flagged for a closer look

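Over the 3 treatments, 44 changes of proteasome genes differed between the lines by the limma test of the difference itself (adjusted p under 0.05 over all genes). This count pools the treatments and repeats some genes, so it does not mean that all 44 genes differed. With SCDi 18 were negative and 2 positive, against 27.6% of all genes in either direction. With siSCD#1 6 were negative and 11 positive (20.3% of all genes), and with siSCD#2 0 and 7 (21.1%). The values are log2 changes in IGR37 minus log2 changes in 501mel, and their causes were not tested.

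With SCDi against DMSO, the differences were PSMD2 (-1.03), PSMD1 (-0.99), PSME3 (-0.92), PSMA2 (-0.88), PSMD6 (-0.81), PSMB3 (-0.77), PSMA7 (-0.77), PSMB2 (-0.65), PSMB5 (-0.64), PSMA4 (-0.64), PSMC5 (-0.55), PSMB4 (-0.55), PSMC4 (-0.53), PSMB6 (-0.47), PSMA6 (-0.46), PSMG4 (-0.45), PSMD4 (-0.34), PSMD14 (-0.32), PSMD7 (0.57), PSMG3 (0.79). With siSCD#1 against siCTR_1, they were PSMA5 (-0.83), PSMD6 (-0.76), PSMG2 (-0.70), PSMA3 (-0.57), PSMA2 (-0.42), PSMD11 (-0.36), PSMA7 (0.37), PSMD8 (0.37), PSMG3 (0.39), PSMC4 (0.45), PSMD1 (0.53), PSMC5 (0.54), PSMC1 (0.60), PSMD4 (0.61), PSMB7 (0.62), PSMB1 (0.65), PSMD13 (0.74). With siSCD#2 against siCTR, they were PSMA1 (0.30), PSMC4 (0.37), PSMD12 (0.42), PSME4 (0.48), PSMD11 (0.51), PSMB5 (0.51), PSMC6 (0.65). PSMC4 differed under all 3 treatments, negatively under SCDi and positively under both siRNAs. The PSMG3 difference under siSCD#1 (adjusted p = 0.0344) was 0.13 with quantile normalisation (adjusted p = 0.421) and 0.22 without library scaling (0.164), and it was also lost without the variance trend (0.11), with a replicate block (0.072) and in 8 of 12 fits without 1 library (0.057 to 0.0956).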

How the results depend on the processing

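No call of a proteasome gene changed sign under the alternatives run. The VCP change with siSCD#1 in 501mel did, at 0.027 with quantile normalisation and 0.043 without library scaling. The RPS27A change in that comparison was 0 with quantile normalisation. The uncalled PSMG3 change in that comparison was -0.07 with median centring and 0.33 (adjusted p = 0.00153) with quantile normalisation. Fitting only the groups compared left 6 members higher with siSCD#2 in IGR37, 4 whose siSCD#2 change differed between the lines and 3 that differed between siCTR and DMSO in 501mel. Median centring left 3 higher with SCDi in IGR37 and 4 differing between the lines with siSCD#2. Quantile normalisation gave 3 higher with siSCD#1 in 501mel and 14 lower with siSCD#2 in IGR37, and 8 differing between siCTR and DMSO in 501mel. Without library scaling, 7 were higher and 15 lower with siSCD#1 in 501mel, and 16 lower with siSCD#2 in IGR37. Without the variance trend 11 differed between the lines with siSCD#1. Leaving out 1 library at a time gave 3 to 5 members higher with SCDi in IGR37, and, for differences between the lines, 11 to 18 with siSCD#1 (11 without IGR37 siCTR_1 replicate 2) and 4 to 17 with siSCD#2. For siCTR against DMSO it gave 3 to 5 in 501mel and 7 to 10 in IGR37. The causes were not tested.

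Over all genes, 0 of 17 pairs of libraries with equal replicate number had a correlation of deviations over 0.1. Over genes with a mean log2 level above 4, which include all members, 5 of 17 pairs did. Whether equal numbers pair the libraries therefore remains unsettled. With a replicate block, 4 members were higher and 29 lower with SCDi in IGR37, and 7 higher and 7 lower with siSCD#2 in IGR37, where the unnumbered library was left out. Each member had at least 35 reads in every library, but small changes in members with few reads could be missed. In the siSCD#1 table the within-group SD was 0.216 for PSMD5 (fewest reads 58) and 0.184 for PSMG2 (43). It was 0.0352 for PSMD8 (1075), but 0.173 for PSMD3 (1381), so spread did not follow depth alone.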
